A study of Canis lupus familiaris with 32 samples.

Results

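Collagens are the triple-helical proteins that give skin its tensile strength. In the dermis, fibril-forming types I, III and V make up the bulk of the matrix, type VI forms beaded filaments around cells and fibrils, and FACIT collagens (fibril-associated collagens with interrupted triple helices) decorate the fibrils. Type IV builds the sheet of basement membranes, type VII anchors the epidermal basement membrane to the dermis, type XVII spans the membrane of basal keratinocytes, and the multiplexins, types XV and XVIII, lie at basement membrane zones. The collagen genes were taken as every gene of the authors' deposited gene table whose symbol has the form COL, number, A, number. The rule found 39 of 17107 genes. One of them, COL4A3BP, encodes a ceramide transfer protein and no collagen chain, which leaves 38 chains.

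Skin was taken from 8 Maltese-beagle dogs with atopic dermatitis, aged 5.5 to 10.5 years, which had been sensitized through the skin to Dermatophagoides farinae, a house dust mite. Mite-challenged skin was biopsied at 6 h, 24 h and 48 h, and control skin 6 h after a mineral oil patch, in every dog and on the side of the chest, so there were 32 arrays and 8 per group. Nothing in the labels names a genotype or a further treatment. Only dogs that had already shown acute lesions after a mite challenge were used, so all values come from responders, and the control biopsies share the disease and the sensitization. The controls analysed here are from 6 h only, so allergen and time since patching cannot be told apart in the 24 h and 48 h comparisons with control. A chain was tied to its probe set on the array where its 6 values in the authors' deposited table equalled those of 1 probe set only. That gave 15 linked chains, and the other 23 are described from the authors' deposited table alone. Signals are log2 values as deposited, and levels are never compared between chains, since different probe sets differ in brightness.

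By class, the 38 chains comprised 11 fibril-forming chains (COL1A1, COL1A2, COL2A1, COL3A1, COL5A1, COL5A2, COL5A3, COL11A1, COL11A2, COL24A1 and COL27A1) and 10 FACIT chains (COL9A1, COL9A2, COL9A3, COL12A1, COL14A1, COL16A1, COL19A1, COL20A1, COL21A1 and COL22A1). There were 6 type IV chains (COL4A1 to COL4A6), 4 type VI chains (COL6A1, COL6A3, COL6A5 and COL6A6), 3 transmembrane chains (COL13A1, COL17A1 and COL23A1) and 2 multiplexins (COL15A1 and COL18A1). COL7A1 and COL8A1 were the sole chains of types VII and VIII among them. The linked chains were COL1A2, COL5A3, COL11A2 and COL24A1 among the fibril-forming ones, COL9A1, COL9A2, COL9A3 and COL21A1 among the FACITs, COL6A1, COL6A5 and COL6A6 of type VI, and COL8A1, COL13A1, COL15A1 and COL23A1. No type IV chain and not COL7A1 was linked.

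The biopsies differed in their muscle, fat and RNA quality measures. The mean log2 signal of 7 linked skeletal muscle markers was at or above 7.41 in 9 arrays and at or below 5.74 in the other 23. These 9 muscle-rich arrays were 5 of the 6 h mite group, 2 of the 24 h mite group, 0 of the 48 h mite group and 2 of the control group. The mean of 7 adipocyte markers was 8.42 ± 0.29 at 24 h and 8.07 ± 0.60 at 48 h, against 9.41 ± 0.43 in control skin (SD, n = 8 each), lower in 8 of 8 dogs at both times. The mean of 6 fibroblast markers that are not collagens was 6.74 ± 0.23 at 24 h and 7.00 ± 0.14 at 48 h, against 7.15 ± 0.06 in control skin, lower in 8 of 8 and 7 of 8 dogs. The actin control's 3' minus 5' difference, which is larger in more degraded RNA, was 2.78 ± 0.48 at 6 h, 2.08 ± 0.37 at 24 h and 1.79 ± 0.29 at 48 h, against 2.27 ± 0.32 in control skin. The mean of 6 basal keratinocyte markers was 7.76 ± 0.34 at 24 h and 7.75 ± 0.13 at 48 h, against 8.05 ± 0.22 in control skin, lower in 8 of 8 dogs at both times, and above the array medians of 4.64 to 4.91 on every array. The mean of 4 endothelial markers was 7.22 ± 0.15 at 24 h and 7.40 ± 0.19 at 48 h, against 7.53 ± 0.15 in control skin, lower in 8 of 8 and 6 of 8 dogs. In bulk biopsies, fewer cells of a type and less RNA per cell cannot be told apart. The part of muscle, fat and RNA quality in the changes of collagen genes was not tested beyond the alternative fits given with each result.

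At 6 h no collagen chain passed the test. Of the 15 linked chains, 0 rose and 0 fell (limma with dog as a block, adjusted p at 0.05), where 0.275% of all 42860 probe sets rose and 2.62% fell (0.323% and 4.08% of the 10513 linked genes). Unadjusted, 3 chains had p under 0.05, and the lowest adjusted p was 0.13, that of COL15A1. The changes lay between -0.30 and 0.30 on the log2 scale with a median of 0.04, against 0.01 over all probe sets. The authors' deposited table gave the same count over all 38 chains, 0 rises and 0 falls, with folds between -1.3 and 1.5, where a negative fold means lower in mite-challenged skin. That table is no separate test, since its values tied the 15 linked chains to their probe sets. Over all 17107 genes of that table, 0.0643% rose and 1.4% fell. Of the 8 arrays of the 6 h group, 5 were muscle-rich, against 2 of 8 control arrays.

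At 24 h the linked chains moved both ways. Of the 15 linked chains, 4 fell (COL1A2, COL5A3, COL8A1 and COL15A1) and 2 rose (COL6A1 and COL6A5), where 5.22% of all probe sets fell and 2.97% rose (7.22% and 3.63% of linked genes). The 2 chains that rose are both of type VI, while the other linked chain of that type, COL6A6, did not pass. The median change was -0.06 on the log2 scale, against -0.03 over all probe sets. The 6 calls became 2 without dog 5, 3 without dog 7 and 3 without the muscle-rich arrays, all of them falls.

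At 48 h the same type VI chains were higher than in control skin, and neither COL1A2 nor COL5A3 passed. Here 2 of 15 linked chains rose, COL6A1 and COL6A5, and 2 fell, COL8A1 and COL15A1, where 10.6% and 9.09% of all probe sets did (12.3% and 10.9% of linked genes). The median change was -0.07, against -0.02 over all probe sets. The shares of linked chains that rose and fell at 48 h lie near these background shares, so the count alone says nothing particular about collagens.

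**Figure D1:**
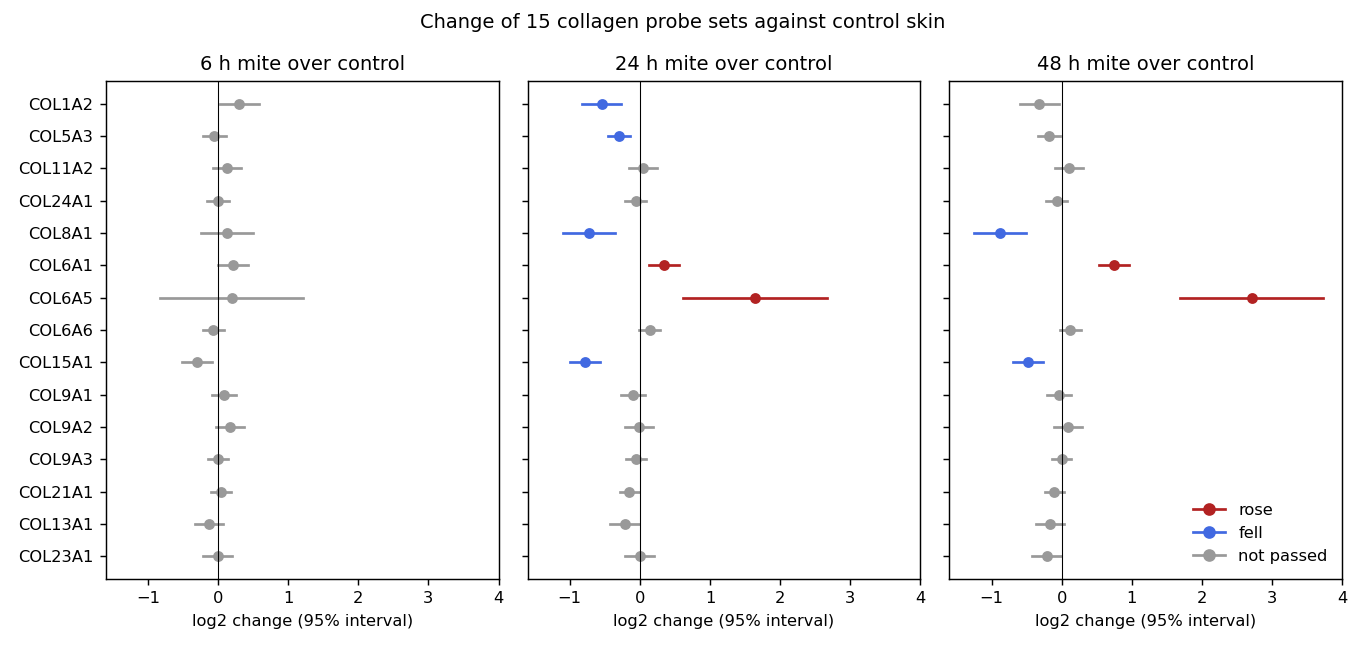
The log2 change of 15 linked collagen chains in mite-challenged over control skin at 6 h, 24 h and 48 h, as points with 95% intervals from the within-dog model (8 dogs per group). COL6A5 stands at 1.64 at 24 h and 2.71 at 48 h with wide intervals, COL15A1 and COL8A1 lie below 0 at both of these times, and all intervals at 6 h belong to chains that did not pass.

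Type I collagen, the main fibre of the dermis, is built from the chains of COL1A1 and COL1A2. COL1A2 had log2 signals of 6.61 (lowest), 7.52 (median) and 7.84 (highest) at 24 h, against 7.56, 7.99 and 8.41 in control skin. The groups overlapped, and 7 of 8 dogs were lower at 24 h. The difference was -0.55 (SE 0.14, adjusted p = 0.012). The call was lost without dog 5 (adjusted p = 0.053), whose 24 h array had the lowest signal, and without dog 7 (adjusted p = 0.051), in a fit of the 2 groups alone (adjusted p = 0.063) and without the muscle-rich arrays (adjusted p = 0.064), while the difference stayed between -0.66 and -0.41 whichever dog was left out. At 48 h COL1A2 had 7.20, 7.64 and 8.14, against the same control values, a difference of -0.32 (adjusted p = 0.11) with 5 of 8 dogs lower. At 6 h it had 7.95, 8.24 and 8.58, a difference of 0.30 from control (adjusted p = 0.26). COL1A1, which has no linked probe set, stood at -1.3-fold at 24 h and 1.2-fold at 48 h in the authors' deposited table (adjusted p = 0.53 and 0.642).

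Type V collagen sits inside the type I fibrils and sets their width. COL5A3, one of its chains, had log2 signals of 4.88 (lowest), 5.28 (median) and 5.57 (highest) at 24 h, against 5.43, 5.50 and 5.79 in control skin. All 8 dogs were lower at 24 h than their own control, though the groups overlapped. The difference was -0.30 (SE 0.08, adjusted p = 0.014), and it was no longer past the test without dog 3 (-0.26, adjusted p = 0.073). At 48 h COL5A3 had 5.08, 5.36 and 5.65 and differed by -0.18 from control (adjusted p = 0.10). The other fibril-forming linked chains, COL11A2 and COL24A1, lay below the array medians on every array and did not pass at any time.

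In the authors' deposited table, 4 of the 11 fibril-forming chains fell at 24 h, where 4.38% of its genes did, and 0 rose. These were COL3A1, the type III chain that accompanies type I in dermal fibres, at -1.9-fold (adjusted p = 0.02), COL1A2 at -1.5-fold (0.033), COL5A2 at -1.3-fold (0.028) and COL5A3 at -1.2-fold (0.045). No other of the 38 chains had a fold as low as that of COL3A1 at 24 h in the authors' deposited table. COL5A1 had a fold of -1.4 in the authors' deposited table and did not pass (adjusted p = 0.053). At 48 h 2 of the 11 fell in the authors' deposited table, where 8.22% of its genes did, COL5A2 at -1.4-fold (0.004) and COL27A1 at -1.2-fold (0.009), while COL3A1 at -1.5-fold did not pass (0.068). COL3A1 and COL5A2 lie next to each other in the RefSeq dog annotation (UU_Cfam_GSD_1.0).

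Type VIII collagen is a short-chain network former made by endothelium and vascular smooth muscle. COL8A1 had log2 signals of 6.24 (lowest), 7.26 (median) and 7.61 (highest) at 24 h and 6.70, 7.04 and 7.37 at 48 h, against 7.60, 7.93 and 8.23 in control skin. At 48 h every biopsy lay below every control biopsy. Groups that did not overlap, in either direction, were found for 3 of the 15 linked chains and for 3.49% of all probe sets. The difference was -0.73 at 24 h (SE 0.18, adjusted p = 0.012) and -0.88 at 48 h (SE 0.18, adjusted p = 0.00092), a 1.84-fold lower signal at 48 h, with 8 of 8 dogs lower at both times. The 24 h call was lost without dog 5 (-0.64, adjusted p = 0.052), and the 48 h call held in every alternative run, with an adjusted p of 0.021 or less. At 6 h COL8A1 was at 7.65, 7.83 and 9.48, and the highest value came from dog 6, whose next neighbour was at 8.10 and whose 6 h array was among the muscle-rich ones.

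COL15A1 encodes the type XV chain, a multiplexin of the basement membrane zone of vessels, nerves and muscle. Its log2 signals were 6.71 (lowest), 7.11 (median) and 7.56 (highest) at 24 h, against 7.67, 7.94 and 8.11 in control skin. It was the only linked chain whose 24 h and control groups did not overlap, which 0.712% of all probe sets showed. The difference was -0.78 (SE 0.11, adjusted p = 6.8e-05), a 1.72-fold lower signal, with all 8 dogs lower, at changes between -1.39 and -0.19. At 48 h COL15A1 had 6.96, 7.45 and 7.80 and was lower by 0.48 (SE 0.11, adjusted p = 0.0017), again in 8 of 8 dogs. Both calls held in every alternative run, with an adjusted p of 0.026 or less. At 6 h COL15A1 had 7.26, 7.46 and 8.17 and a difference of -0.30 with 5 of 8 dogs lower (adjusted p = 0.13). COL18A1, the other multiplexin, which has no linked probe set, stood at -1.2-fold at 24 h and at 48 h in the authors' deposited table and did not pass (adjusted p = 0.207 and 0.116).

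Type IV collagen forms the network of basement membranes, and its 6 chains have no linked probe set. In the authors' deposited table, 2 of the 6 fell at 24 h, where 4.38% of its genes did, COL4A1 at -1.5-fold (adjusted p = 0.041) and COL4A2 at -1.2-fold (0.01). At 48 h 1 of the 6 fell in the authors' deposited table, where 8.22% of its genes did, COL4A1 at -1.4-fold (0.021). These chains form the common basement membrane heterotrimer and their genes adjoin each other. COL4A3, COL4A4, COL4A5 and COL4A6 had folds between -1.1 and -1 at 24 h in the authors' deposited table and did not pass.

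**Figure D2:**
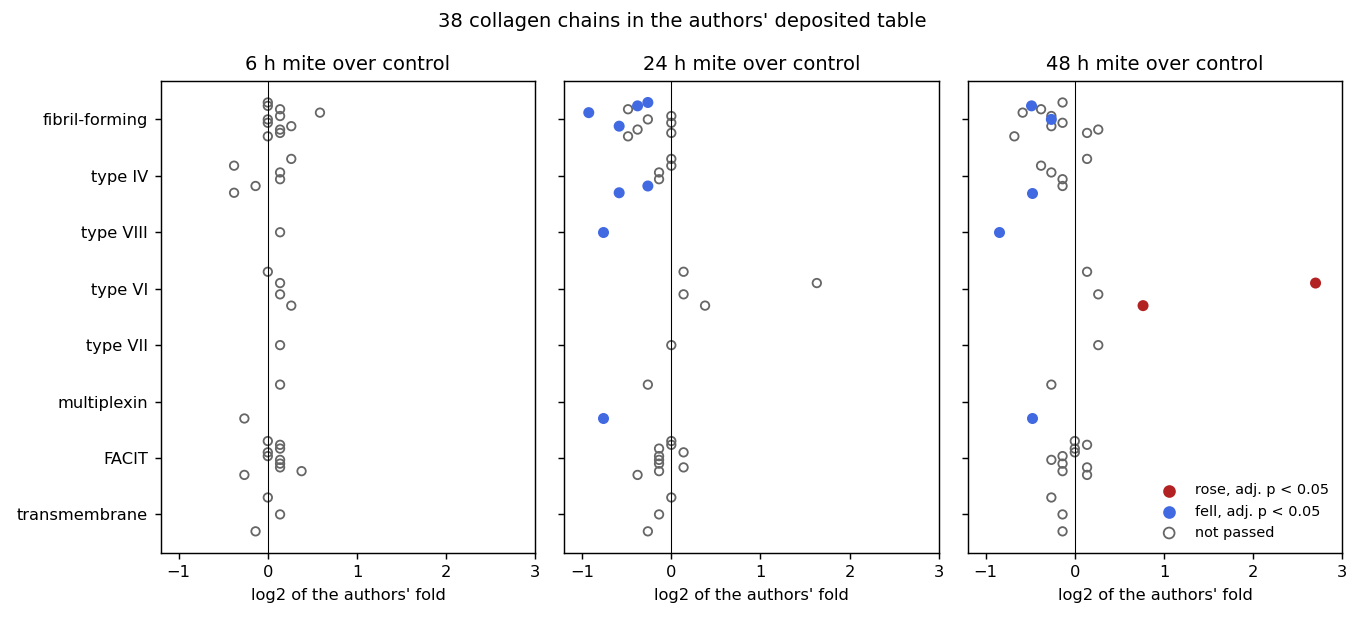
The fold of each of the 38 chains in mite-challenged over control skin from the authors' deposited table, on a log2 axis by class, with filled points for adjusted p below 0.05. At 24 h 8 chains fell and 0 rose, and at 48 h 5 fell and 2 rose, both of type VI.

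Type VI collagen makes beaded filaments that link cells to the surrounding matrix, and is built from COL6A1, COL6A2 and one of the longer chains COL6A3, COL6A5 or COL6A6. COL6A2 was not analysed here. COL6A1 had log2 signals of 6.76 (lowest), 7.00 (median) and 7.42 (highest) at 24 h and 7.21, 7.45 and 7.73 at 48 h, against 6.37, 6.75 and 6.96 in control skin. At 48 h every biopsy lay above every control biopsy, and 3.49% of all probe sets had 48 h and control groups that did not overlap. The difference was 0.34 at 24 h (SE 0.10, adjusted p = 0.039) and 0.75 at 48 h (SE 0.10, adjusted p = 9.1e-06), 1.68-fold at 48 h, with 8 of 8 dogs higher at both times. The 24 h call was lost without dog 2, 4, 5, 6 or 7 (adjusted p up to 0.16), without dog 5's 24 h array alone (0.067), with muscle (0.062) or the actin difference (0.095) as a covariate, and without the muscle-rich arrays (0.27, adjusted p = 0.20), while the 48 h call held in every alternative run, with an adjusted p of 0.0015 or less. In the authors' deposited table COL6A1 was at 1.3-fold at 24 h, which did not pass (adjusted p = 0.058), and at 1.7-fold at 48 h, which did.

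COL6A5 had the largest change of any linked chain and the largest difference between dogs. Its log2 signals were 2.46 (lowest), 3.54 (median) and 7.29 (highest) at 24 h and 2.67, 5.16 and 6.73 at 48 h, against 2.17, 2.42 and 2.65 in control skin. The control values were all below the array medians of 4.64 to 4.91, where a probe set is dim, and 4 of 8 dogs were above 4.91 at 48 h. At 48 h every dog lay above every control biopsy, but dog 7 stood at 2.67, against 2.65 for the highest control. Groups without overlap at 48 h were found for 3.49% of all probe sets. The difference was 2.71 (SE 0.50, adjusted p = 0.00028, 95% interval 1.68 to 3.73) at 48 h and 1.64 (SE 0.50, adjusted p = 0.039, 95% interval 0.62 to 2.67) at 24 h, with all 8 dogs higher at both times.

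The spread is best seen dog by dog. At 24 h the change of COL6A5 against the dog's own control ran between 0.02 in dog 8 and 4.94 in dog 6, and at 48 h between 0.22 in dog 7 and 4.56 in dog 4. Dog 6 was already high at 24 h, and its 48 h change of 4.30 was smaller. The SD over dogs was 1.61 at 24 h and 1.54 at 48 h, against 0.16 in control skin, while no other linked chain had an SD above 0.61 in any group. The 24 h call was lost without dog 2, 4, 5, 6 or 7 (adjusted p up to 0.13), without the muscle-rich arrays (1.67, adjusted p = 0.11), with the actin difference in the model (0.088) and without the dog as a block (0.075). It was also lost with an intensity trend and robust variances (adjusted p = 0.070). The 48 h call held in all 19 alternatives that tested COL6A5, with an adjusted p of 0.015 or less, and the filter on dim probe sets removed it. In the authors' deposited table COL6A5 stood at 3.1-fold at 24 h (adjusted p = 0.108) and 6.5-fold at 48 h (adjusted p = 0.002).

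COL6A6, which adjoins COL6A5 in the RefSeq annotation, did not pass. Its signals were 2.03 (lowest), 2.14 (median) and 2.50 (highest) at 24 h and 2.04, 2.15 and 2.41 at 48 h, against 1.81, 2.11 and 2.33 in control skin. These values are dim on every array. The change was 0.14 at 24 h (adjusted p = 0.28) and 0.12 at 48 h (adjusted p = 0.27). COL6A3 stood at 1.1-fold at 24 h and 1.2-fold at 48 h in the authors' deposited table (adjusted p = 0.71 and 0.177).

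**Figure D3:**
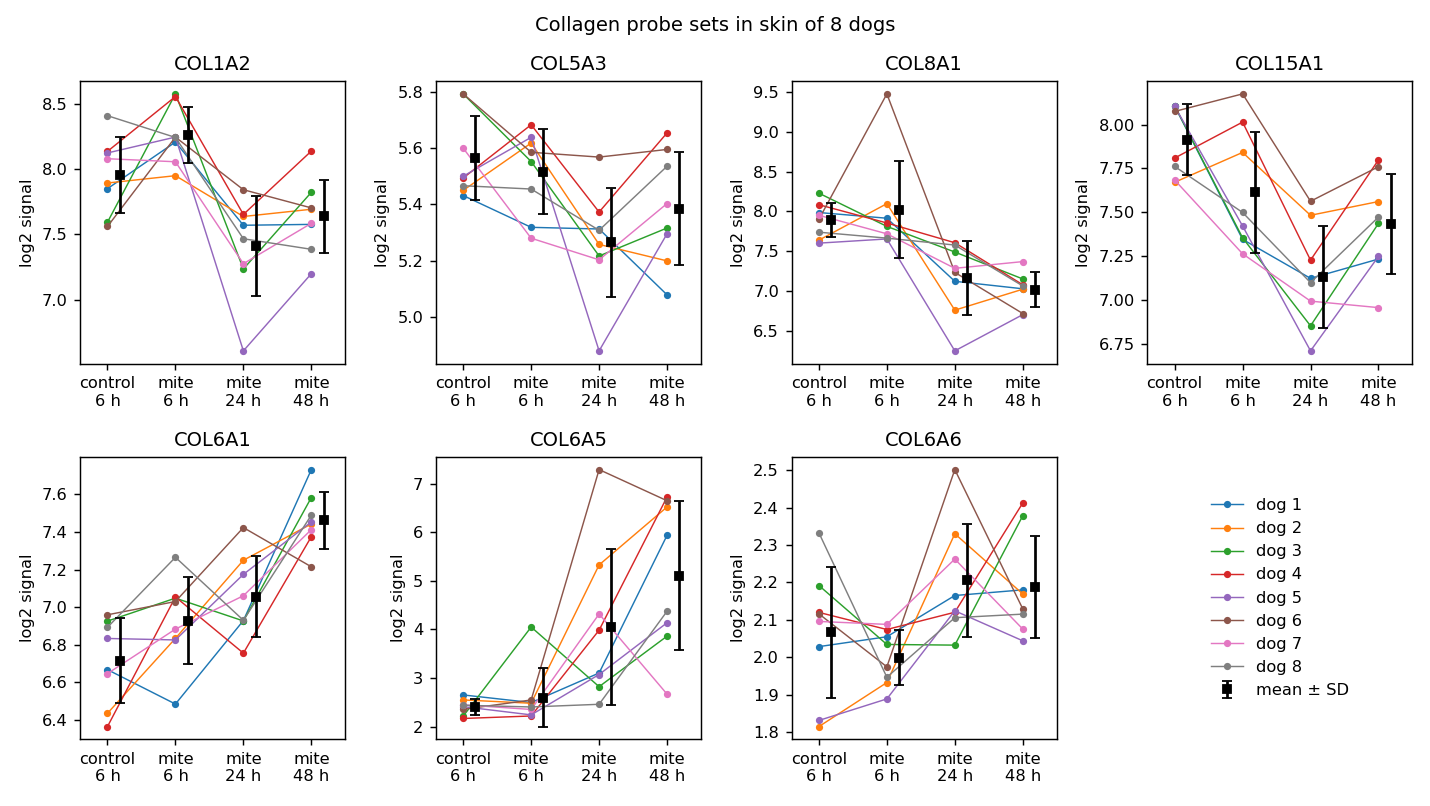
Log2 signals of 7 linked collagen chains in each dog (coloured lines) in control skin and at 6 h, 24 h and 48 h after the mite patch, with the mean ± SD in black (8 dogs per group). COL15A1, COL8A1, COL1A2 and COL5A3 sit lowest at 24 h or 48 h, COL6A1 is highest at 48 h, and COL6A5 spreads between 2.67 and 6.73 at 48 h, with control values between 2.17 and 2.65.

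The remaining classes gave no change past the test against control. All 4 linked FACITs, COL9A1, COL9A2, COL9A3 and COL21A1, and both linked transmembrane chains, COL13A1 and COL23A1, did not pass at any time. COL23A1 at 48 h passed in 3 alternatives, with array weights (-0.20, adjusted p = 0.026), without dog 5 (-0.19, 0.042) and without dog 5's 24 h array alone (-0.21, 0.011). Over the 9 linked chains that did not pass in any comparison with control, the changes lay between -0.22 and 0.17 on the log2 scale, with 95% intervals reaching no further than -0.42 and 0.38. In the authors' deposited table, 0 of 10 FACITs and 0 of 3 transmembrane chains passed at 24 h or 48 h. COL12A1 and COL14A1, FACITs of skin fibrils, were at -1.3-fold and -1.1-fold at 24 h in the authors' deposited table (adjusted p = 0.248 and 0.324). COL17A1 was at -1.1-fold at 24 h and 48 h, and COL7A1 at -1-fold and 1.2-fold, in the authors' deposited table, none of them past the test. COL4A3BP, the ceramide transfer protein set aside above, was lower at all 3 times in the authors' deposited table, at -1.3-fold (adjusted p = 0.022), -1.4-fold (0.003) and -1.5-fold (< 0.001) at 6 h, 24 h and 48 h.

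Over all 38 chains in the authors' deposited table, 8 fell and 0 rose at 24 h, where 4.38% of its 17107 genes fell and 2.85% rose, and 31 of the 38 folds were negative. At 48 h 5 of the chains fell and 2 rose in that table, against 8.22% and 12.5% of its genes. The falling chains at 24 h were COL1A2, COL3A1, COL4A1, COL4A2, COL5A2, COL5A3, COL8A1 and COL15A1. Those at 48 h were COL4A1, COL5A2, COL8A1, COL15A1 and COL27A1.

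Between mite-challenged time points, which share dogs with the comparisons above, 1 of 15 linked chains rose and 5 fell at 24 h over 6 h, where 8.45% of all probe sets rose and 8.85% fell. COL1A2 fell by 0.85 (adjusted p = 0.00021), COL8A1 by 0.86 (0.0019), COL15A1 by 0.48 (0.0028), COL5A3 by 0.25 (0.026) and COL21A1 by 0.20 (0.042), and COL6A5 rose by 1.45 (0.045). The 24 h and 6 h values of COL1A2 and COL8A1 did not overlap, as held for 1.19% of all probe sets. None of these 6 calls held without the muscle-rich arrays or with the actin difference in the model, and in the first of these fits 0 of all probe sets were called either. With the actin difference 160 of all probe sets rose and 327 fell, against 3621 and 3795 in the main fit. The differences themselves kept their sign. Without the muscle-rich arrays they were -0.72 for COL1A2, -0.43 for COL8A1, -0.48 for COL15A1, -0.12 for COL5A3, -0.24 for COL21A1 and 1.48 for COL6A5. With the actin difference they were -0.71, -0.77, -0.45, -0.18, -0.18 and 0.88 in the same order. Without dog 5, or without its 24 h array alone, 3 of the 15 chains were called. The call of COL21A1 was lost in 16 of 19 alternatives, that of COL6A5 in 13 of 19 and that of COL5A3 in 10 of 20. Those of COL1A2, COL8A1 and COL15A1 were each lost in 2 of 20. At 48 h over 24 h COL6A1 rose by 0.41 (adjusted p = 0.030, 7 of 8 dogs), a call lost without any one of dogs 1, 2, 3, 4, 5 or 8, and 0 chains fell, where 2.37% of all probe sets rose and 0.184% fell. COL6A5 differed by 1.06 between these times and did not pass (adjusted p = 0.33). At 48 h over 6 h COL6A1 rose by 0.53 and COL6A5 by 2.51, and COL1A2 fell by 0.62 and COL8A1 by 1.01 (each at an adjusted p of 0.0012 or less), where 15.8% of all probe sets rose and 13.6% fell. Without the muscle-rich arrays 1 of these 4 calls was left, that of COL8A1 (-0.58, adjusted p = 0.049), while COL6A5 differed by 2.51 (0.060), COL1A2 by -0.49 (0.22) and COL6A1 by 0.37 (0.18). With the actin difference in the model 0 were left, at -0.88 for COL8A1, 1.71 for COL6A5, -0.42 for COL1A2 and 0.29 for COL6A1. Calls over all probe sets at 48 h over 6 h also became fewer in these fits. In the main fit 6774 rose and 5829 fell, without the muscle-rich arrays 1005 and 599, and with the actin difference 474 and 376.

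Among linked genes that make, modify or bind collagen, those of the cross-linking enzymes LOX and LOXL1 and of 3 integrin chains fell. Most of those of fibril-associated proteins fell too, while TIMP1 and POSTN rose. Lysyl oxidases cross-link collagen fibres: LOX fell by 0.53 at 24 h (SE 0.11, adjusted p = 0.0025) and by 0.77 at 48 h (SE 0.11, adjusted p = 1.1e-05), and LOXL1 fell by 0.48 and 0.40 (adjusted p = 0.0063 and 0.010), the 48 h call being lost with the actin difference in the model (adjusted p = 0.25). These were 2 of 7 linked genes of procollagen processing and cross-linking, of which 0 rose. Of 10 linked genes of hydroxylation and folding, 2 fell at 24 h, where 5.22% of all probe sets did: P4HA2, a prolyl hydroxylase subunit, by 0.39 (adjusted p = 0.0036) and FKBP7, a chaperone of the secretory pathway, by 0.33 (0.043). At 48 h, PLOD1, a lysyl hydroxylase, rose by 0.41 (adjusted p = 0.0017) and FKBP10, a collagen chaperone, by 0.30 (0.0068), and P4HA2 fell by 0.24 (0.046). These 2 rises and 1 fall of 10 linked genes lie near the 10.6% and 9.09% of all probe sets that rose and fell at 48 h. In the authors' deposited table, some members without a linked probe set rose at 48 h, where 12.5% of its genes did. These were PPIB at 1.8-fold (adjusted p < 0.001), P4HB at 1.3-fold (0.001), LEPREL4 at 1.3-fold (0.01) and P4HA1 at 1.3-fold (0.02). P4HA3, PLOD3, LEPRE1, CRTAP and CTAGE5 did not pass at 48 h, nor did P4HA2 in that table, at -1.2-fold (0.077). The calls of FKBP7 at 24 h and P4HA2 at 48 h were lost in 15 and 12 of 20 alternatives, and that of FKBP10 without the muscle-rich arrays (adjusted p = 0.099). The median change of this list was -0.01 at 24 h and 0.09 at 48 h, against -0.03 and -0.02 over all probe sets.

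Integrins are the cell's main collagen receptors. ITGB1, the shared beta chain, fell by 0.70 at 6 h, 0.89 at 24 h and 0.78 at 48 h (SE 0.12, adjusted p = 0.0025, 6.5e-05 and 3.3e-05). ITGA2, its partner on keratinocytes, fell by 0.52, 0.82 and 0.71, and ITGA1 by 0.51 at 24 h and 0.49 at 48 h. So 3 of 7 linked receptor genes fell at 24 h and at 48 h, where 5.22% and 9.09% of all probe sets did, and 0 rose. LAIR1, a collagen receptor without a linked probe set, rose 1.6-fold at 48 h in the authors' deposited table (adjusted p = 0.006). The 24 h call of ITGA1 was lost without dog 4, 5 or 7 (adjusted p up to 0.070). At 6 h the calls of ITGB1 and ITGA2 were lost without the muscle-rich arrays and with the actin difference in the model. In both of these fits 0 of all 42860 probe sets were called at 6 h. The 6 h call of ITGA2 was lost in 8 of 20 alternatives. At 48 h the calls of all 3 integrin genes held in every alternative run. Among 7 linked genes of collagen breakdown, 1 rose and 1 fell at 6 h and at 24 h, and 1 rose and 2 fell at 48 h. As background, rises made up 0.275% of the 42860 probe sets at 6 h, 2.97% at 24 h and 10.6% at 48 h. Falls made up 2.62%, 5.22% and 9.09% in the same order. Besides MMP3, the gene that fell at 48 h was MRC2 (-0.31, adjusted p = 0.029), a call lost in 12 of 19 alternatives. TIMP1, which inhibits the matrix metalloproteinases that cut collagen, rose by 1.24 at 24 h (adjusted p = 0.010, lost at 0.079 without the muscle-rich arrays) and by 1.83 at 48 h (adjusted p = 8.3e-05), and MMP3, a stromelysin, fell by 0.99, 1.18 and 1.08 at 6 h, 24 h and 48 h. The 6 h call of MMP3 was lost without dog 3. It was also lost without the muscle-rich arrays and with the actin difference, where no probe set was called at 6 h. MMP2, a gelatinase, rose by 0.39 at 6 h (adjusted p = 0.042), a call lost in 11 of 20 alternatives. Members of this list without a linked probe set moved both ways in the authors' deposited table. TIMP3 fell there, at -2.2-fold at 24 h and -2.6-fold at 48 h (adjusted p < 0.001 each). At 48 h MMP9 rose 2.8-fold (0.007), FAP 1.5-fold (0.038) and CTSB 1.3-fold (0.046), where 12.5% of its genes rose and 8.22% fell. MMP1, MMP13 and CTSK did not pass.

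Of 7 linked genes of fibril-associated proteins, 5 fell and 1 rose at 24 h, where 5.22% of all probe sets fell and 2.97% rose, and again at 48 h, where 9.09% fell and 10.6% rose, with a median change of -0.85 and -0.36, against -0.03 and -0.02 over all probe sets. OGN, a small leucine-rich proteoglycan, fell by 0.92 and 1.44, ASPN by 0.85 and 1.04, TNC (tenascin C) by 0.88 and 1.20, and LUM (lumican), at 24 h, by 0.91 (adjusted p = 0.0035). POSTN (periostin), a matricellular protein known from type 2 inflammation, was the 1 riser, by 0.90 at 24 h (adjusted p = 0.049, lost in 13 of 20 alternatives) and by 2.02 at 48 h (adjusted p = 1.3e-05). The 24 h call of OGN was lost without dog 1, 3, 4 or 5 and without dog 5's 24 h array alone (adjusted p up to 0.087). At 48 h FMOD was among the 5 that fell (-0.36, adjusted p = 0.024, lost in 5 of 19 alternatives) and LUM was not. DCN fell by 0.36 at 24 h and 0.31 at 48 h (adjusted p = 0.020 and 0.026), and each call was lost in 6 of 20 alternatives. DCN and LUM count in this list and among the fibroblast markers alike. In the TGF-beta list, LTBP1, which stores latent TGF-beta in the matrix, rose by 0.77 at 24 h and 1.48 at 48 h, and TGFB1 by 0.55 at 48 h, and 0 of 5 linked genes fell. The 24 h call of LTBP1 was lost without the dog as a block and without dog 3, 5 or 6 (adjusted p up to 0.065).

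Markers of the cell types that a skin biopsy can hold moved alongside, and their part in the collagen changes was not tested. The counts stand beside 5.22% of all probe sets that fell and 2.97% that rose at 24 h, and 9.09% and 10.6% at 48 h. Of 6 fibroblast markers, 3 fell at 24 h and 2 at 48 h, and of 7 adipocyte markers, 5 and 6. Of 4 endothelial markers, 1 fell at 24 h, and 1 rose and 1 fell at 48 h, while 0 of 4 markers of pericytes and smooth muscle and 0 of 4 of Schwann cells passed at either time. Of 6 basal keratinocyte markers, 2 fell at 24 h and 3 at 48 h, and of 7 muscle markers, 0 and 2. Of 6 T cell markers, 1 rose at 24 h and 5 at 48 h, and of 4 macrophage markers, 1 and 4.

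**Figure D4:**
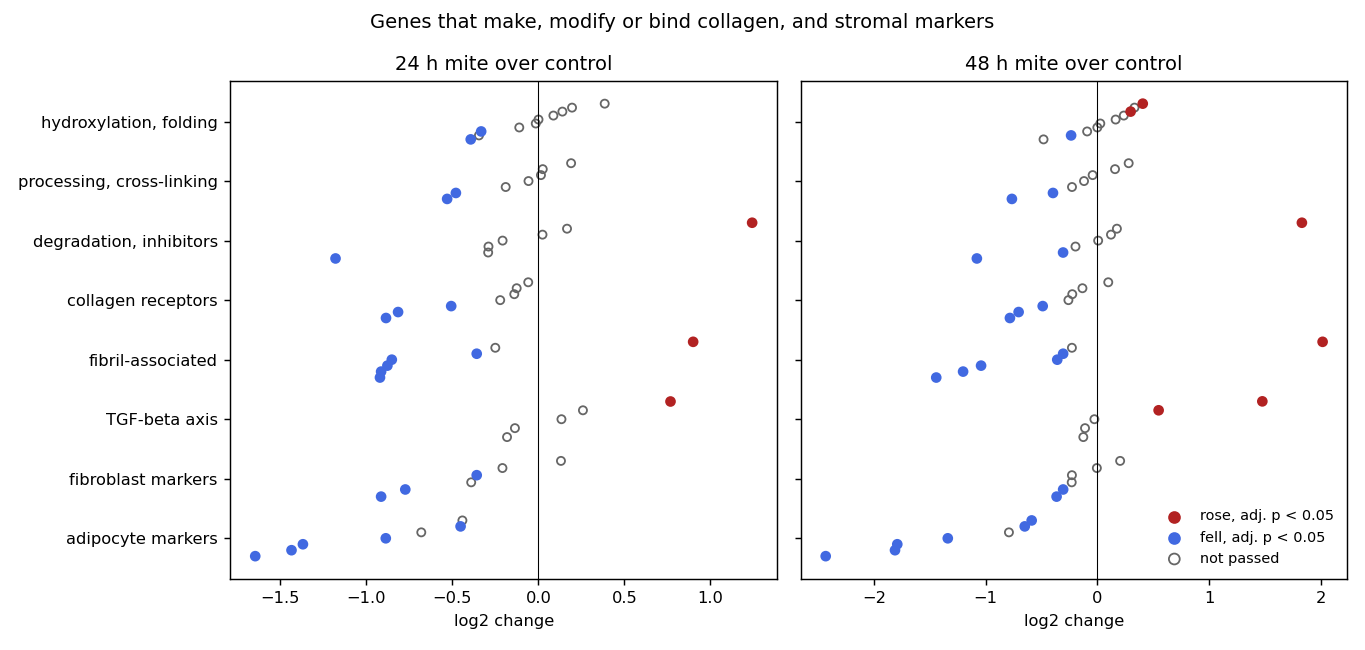
Log2 change of linked genes of collagen biosynthesis, breakdown and binding, and of fibroblast and adipocyte markers, in mite-challenged over control skin at 24 h and 48 h, with each point 1 gene and filled points past an adjusted p of 0.05. The adipocyte markers and most fibril-associated genes lie below 0, and POSTN at 2.02 and TIMP1 at 1.83 are the highest filled points of their lists at 48 h.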

How the data were processed

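Arrays of 32 skin biopsies were analysed. The deposited values are log2 signals for 43035 probe sets. Their summary method, normalization, array design and build were not given in the sources used here. A deposited gene table by the authors holds signed folds and adjusted p-values for 17107 genes. As deposited by the authors, folds are scores rounded to 1 decimal, and p-values have 3 decimals, with the smallest given only as below a bound.

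Probe sets are unnamed in the deposited values, so a gene was linked to the 1 probe set whose 3 folds and 3 Benjamini-Hochberg p-values from a plain linear model without the dog equalled its row, within 0.05 and 0.001. This named 10513 genes (61.5%), of which about 10.7 are expected to be wrong from 5 shuffles of the table, and 15 of 38 collagen chains (39.5%). The 4 groups were fitted with limma 3.58.1 in R 4.3.3, with the dog as a block, over 42860 probe sets without 175 array controls, with 21 residual degrees of freedom. Tests were 2-sided, adjusted over all probe sets, and called at 0.05. The model was tested on simulated data with known changes.

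Biopsies were paired by the dog number in their labels. Deviations from group means correlated at 0.16 on average over 48 pairs of the same dog (-0.46 to 0.70, 33 above 0.1). The collagen members and the 15 other gene lists were chosen with earlier results of these data known. Every chain was accounted for, and group values were given for linked chains that passed against control or belong to the main skin types. Up to 4 passing linked members were named from each other list, and DCN and FMOD were named in addition after seeing the data. Some members of these lists without a linked probe set were named after seeing the data. The alternatives tried were fits without the dog, with the dog as a random effect, to the 2 groups compared, after quantile normalization or median centring, with an intensity trend and robust variances, array weights, a filter on dim probe sets, muscle or actin as a covariate, and leaving out muscle-rich arrays, 1 array of dog 5, or each dog. The number of arrays limits the precision. The extension of these alternatives to genes of the other lists was chosen after seeing the data.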

Additional observations from a re-analysis of the deposited data

Results flagged for a closer look

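In 5 of 60 groups of 8 dogs, 1 dog stood apart from the others by more than Dixon's 95% critical value, which chance gives in about 1 of 20 groups. COL6A5 at 6 h was 4.05 in dog 3, with the next dog at 2.55. COL8A1 at 6 h was 9.48 in dog 6, with the next at 8.10. COL23A1 at 24 h was 6.42 in dog 5, with the next at 5.74, and COL9A2 at 24 h was lowest in dog 5, at 4.66, with the next at 5.13. COL24A1 at 48 h was lowest in dog 1, at 3.93, with the next at 4.09. The 5 values come from 4 arrays, as dog 5's 24 h array gave both COL23A1 and COL9A2. The 6 h arrays of dogs 3 and 6 were muscle-rich, and dog 5's 24 h array had the lowest median signal of all, 4.64.

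The response at 2 time points differed by a test of the difference itself in 11 cases. At 24 h minus 6 h these were COL1A2 (-0.85), COL8A1 (-0.86), COL15A1 (-0.48), COL5A3 (-0.25), COL21A1 (-0.20) and COL6A5 (1.45). At 48 h minus 6 h they were COL1A2 (-0.62), COL8A1 (-1.01), COL6A1 (0.53) and COL6A5 (2.51). At 48 h minus 24 h it was COL6A1 (0.41), a call lost in 12 of 20 alternatives. At 24 h minus 6 h the call of COL21A1 was lost in 16 of 19, COL6A5 in 13 of 19 and COL5A3 in 10 of 20.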

How the results depend on the processing

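The counts of chains called at 6 h (0) and at 48 h (4) against control stayed within 1.5 times under every alternative run, and no called change turned its sign. Against control at 24 h, the 6 calls became 3 without the muscle-rich arrays and between 2 (without dog 5) and 6 when 1 dog was left out. At 24 h over 6 h, the 6 calls became 3 in a fit of the 2 groups alone, 3 with muscle as a covariate, 3 without dog 5's 24 h array, 0 without the muscle-rich arrays and 0 with the actin difference, and between 3 and 5 when 1 dog was left out. At 48 h over 24 h, the 1 call became 0 in the fit of 2 groups, after quantile normalization, after centring on medians, with muscle or actin as a covariate and without the muscle-rich arrays, and 0 to 1 with 1 dog left out. At 48 h over 6 h, the 4 calls became 1 without the muscle-rich arrays and 0 with the actin difference. In the paired design, the fit with no replicate block gave 0, 5 and 4 calls against control at 6 h, 24 h and 48 h, and 4, 1 and 4 between times in the order above. The filter on dim probe sets left 9 of 15 chains, without COL6A5, and a stricter tolerance for linking (0.02 and 0.0005) linked 0 chains, since the table's folds carry 1 decimal. Causes of these shifts were not tested. Signals near the dim end, as for COL6A5 in control skin and COL6A6, limit what a fold there can show.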
